A study of Mus musculus with 13 samples.

Results

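The genes of the muscle sarcomere and of excitation-contraction coupling were followed in C2C12 myoblasts depleted of YBX3. They were chosen by what their proteins do, as 51 of the 55642 genes of the deposited count table, and 41 of them had enough counts to be tested among 16848 tested genes. By role, 16 belong to the thin filament, 12 to the thick filament and M-band, 15 to the Z-disc and intermediate filament, 4 to calcium release and uptake, and 4 to energy supply, assembly and other work.

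In striated muscle, thin filaments of actin, tropomyosin and troponin slide past thick filaments of myosin and shorten the sarcomere. The Z-disc anchors the thin filaments, desmin ties neighbouring Z-discs together, and titin and the M-band keep the thick filaments in register. A voltage change at the cell surface opens the calcium store, troponin C binds the released calcium, and a pump returns it. Dividing myoblasts make little of this apparatus and assemble it after they leave the cell cycle and fuse.

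C2C12 is an established clonal line of mouse myoblasts. Cells were reverse transfected with a non-targeting siRNA (control KD) or with siRNA against YBX3 (YBX3 KD). After 24 h the medium either stayed at 10% fetal bovine serum (0 day) or was replaced with medium holding 10% horse serum (1 day), and every culture was harvested 48 h after transfection. The 13 libraries are control KD at 0 day (replicates A, B, C, D) and at 1 day (C, D), and YBX3 KD at 0 day (A, B, C, D) and at 1 day (B, C, D).

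Ybx3 was read first as the check of the knockdown (ENSMUSG00000030189). In control KD it stood at 316, 311, 334 and 265 CPM (counts scaled to the TMM-adjusted size of the library) at 0 day and at 347 and 294 CPM at 1 day. After YBX3 KD the levels were 46.6, 40.3, 42.9 and 37.9 CPM at 0 day and 47.0, 71.5 and 28.7 CPM at 1 day. Every YBX3 KD library lay far below every control KD library, and the most Ybx3 among the depleted cultures was in replicate C at 1 day. Over both days Ybx3 fell by 2.81 on the log2 scale (standard error, SE, 0.17, adjusted p 5.26e-06, edgeR quasi-likelihood, Benjamini-Hochberg).

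The levels of the members spanned a wide range in these undifferentiated or barely differentiated cells. Per kb of canonical transcript and averaged over the 13 libraries, the tropomyosins led with 502 CPM for Tpm1, 213 for Tpm3 and 118 for Tpm2. The actin crosslinker gene Flnc followed at 59.1 and the troponin T gene Tnnt2 at 37.8. At the low end Neb, which codes for the ruler of the thin filament, reached 0.0365 and the myosin-binding protein gene Mybpc2 0.0210, the least of the 41 tested members. Isoforms were not measured, so how much of the values of genes that also have nonmuscle transcripts, such as Tpm1, Tpm2 and Tpm3, comes from muscle forms is not known.

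**Figure D1:**
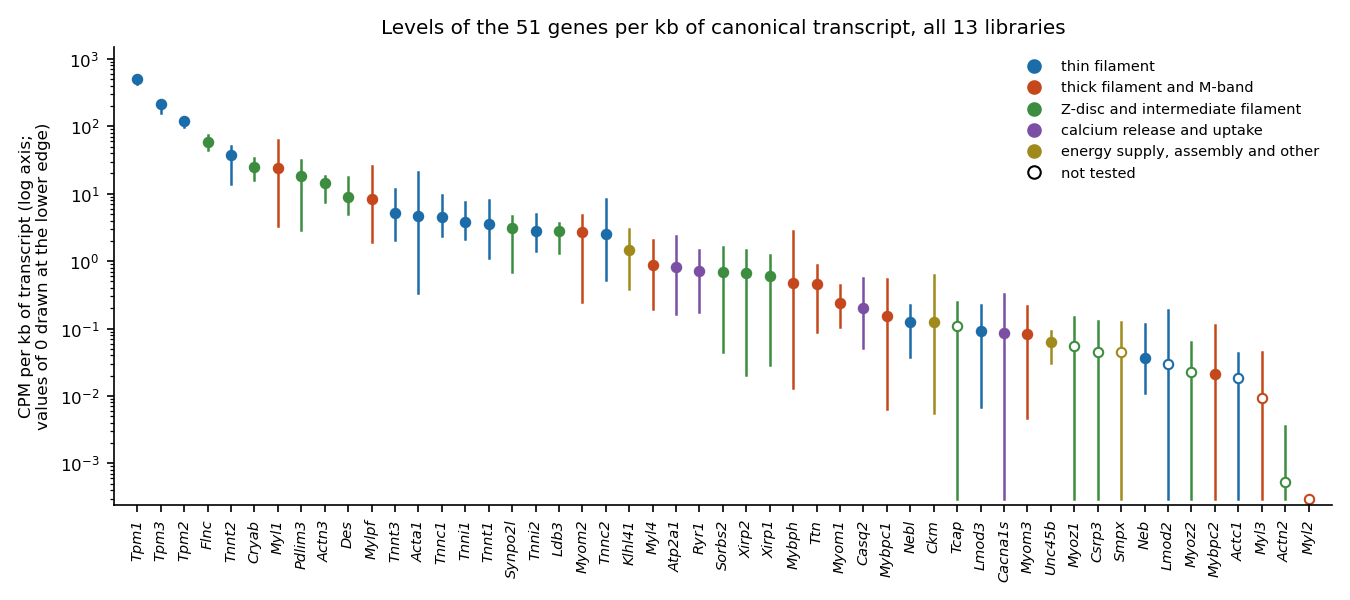
Level of each of the 51 genes in CPM per kb of canonical transcript on a log axis, coloured by role, with the dot at the mean of the 13 libraries and the line from the lowest to the highest library. Tropomyosin genes sit at the top with 502, 213 and 118 CPM per kb, and the open circles are the 10 genes with too few counts to test.

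Not tested for too few counts were 10 members. The cardiac actin gene Actc1 and the actin filament nucleator gene Lmod2 had 40 counts each over the 13 libraries, the titin cap gene Tcap had 60 and the LIM protein gene Csrp3 had 29. Of the myosin light chains, Myl2 had 0 counts in every library and Myl3 had 5. At the Z-disc, Actn2 had 2 counts, Myoz1 44 and Myoz2 48. The last was Smpx, a small muscle protein gene, with 30 counts.

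Summed over its members, the thin filament group ran from 1888 to 2295 CPM per library (median 2078), with Tpm1 the most abundant at 1099 CPM on average. The thick filament and M-band group ran from 18.9 to 214 CPM (median 94.1), led by Ttn at 49.1. For the Z-disc group the range was 533 to 922 CPM (median 735), led by Flnc at 541. Calcium genes summed to between 3.66 and 35.1 CPM, led by Ryr1, and the energy and assembly genes to between 1.59 and 12.6 CPM, led by Klhl41. The thick filament, calcium and energy sums were all lowest in control KD 1 day D and highest in YBX3 KD 1 day C.

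Before any comparison, libraries that stand apart have to be named, because they carry much of the spread in these genes. The 4 replicate D libraries, which belong to 4 different groups, all lay below the other 9 libraries for 10 of the 41 tested members (24.4%), against 9.10% of all tested genes. These were Tnnc1, Myl1, Myl4, Mybph, Pdlim3, Xirp1, Xirp2, Synpo2l, Sorbs2 and Cacna1s. Des alone went the other way (2.44% of members), against 9.66% of all tested genes with all D libraries on top.

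Xirp2, whose protein binds actin at the Z-disc and its junctions, differed most among the abundant ones. It stood at 11.04, 10.4, 10.6 and 0.247 CPM in control KD at 0 day and at 8.30 and 0.758 CPM at 1 day. The YBX3 KD libraries had 13.8, 13.2, 17.2 and 1.41 CPM at 0 day and 8.81, 8.70 and 0.384 CPM at 1 day. The last library of each group is replicate D, and in all 4 groups it was far below its neighbours. The mean of the 9 others was 16.2 times the D mean.

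The same split was seen in some, not all, of the genes for proteins that meet at the Z-disc: Pdlim3, Xirp1, Synpo2l and Sorbs2. For Actn3, Flnc, Cryab and Ldb3 the D libraries overlapped with the other 9. Actn3, for example, averaged 50.7 CPM in D and 49.4 CPM in the others. Pdlim3, which encodes an adaptor on alpha-actinin, averaged 8.30 CPM in D and 44.9 in the other 9. Sorbs2, for a scaffold that binds actin regulators, averaged 0.550 and 7.32 CPM, and Synpo2l, for an actin-bundling protein, 5.99 and 22.3 CPM. Myl1, the gene of an essential light chain of fast myosin, averaged 7.81 CPM in D and 37.6 CPM elsewhere. Des, the gene of the intermediate filament protein desmin, averaged 48.9 CPM in D (43.7 to 54.8) and 19.3 CPM in the others (15.5 to 25.9), with no overlap. The letter is the only fact in the labels that sets replicate D apart.

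**Figure D2:**
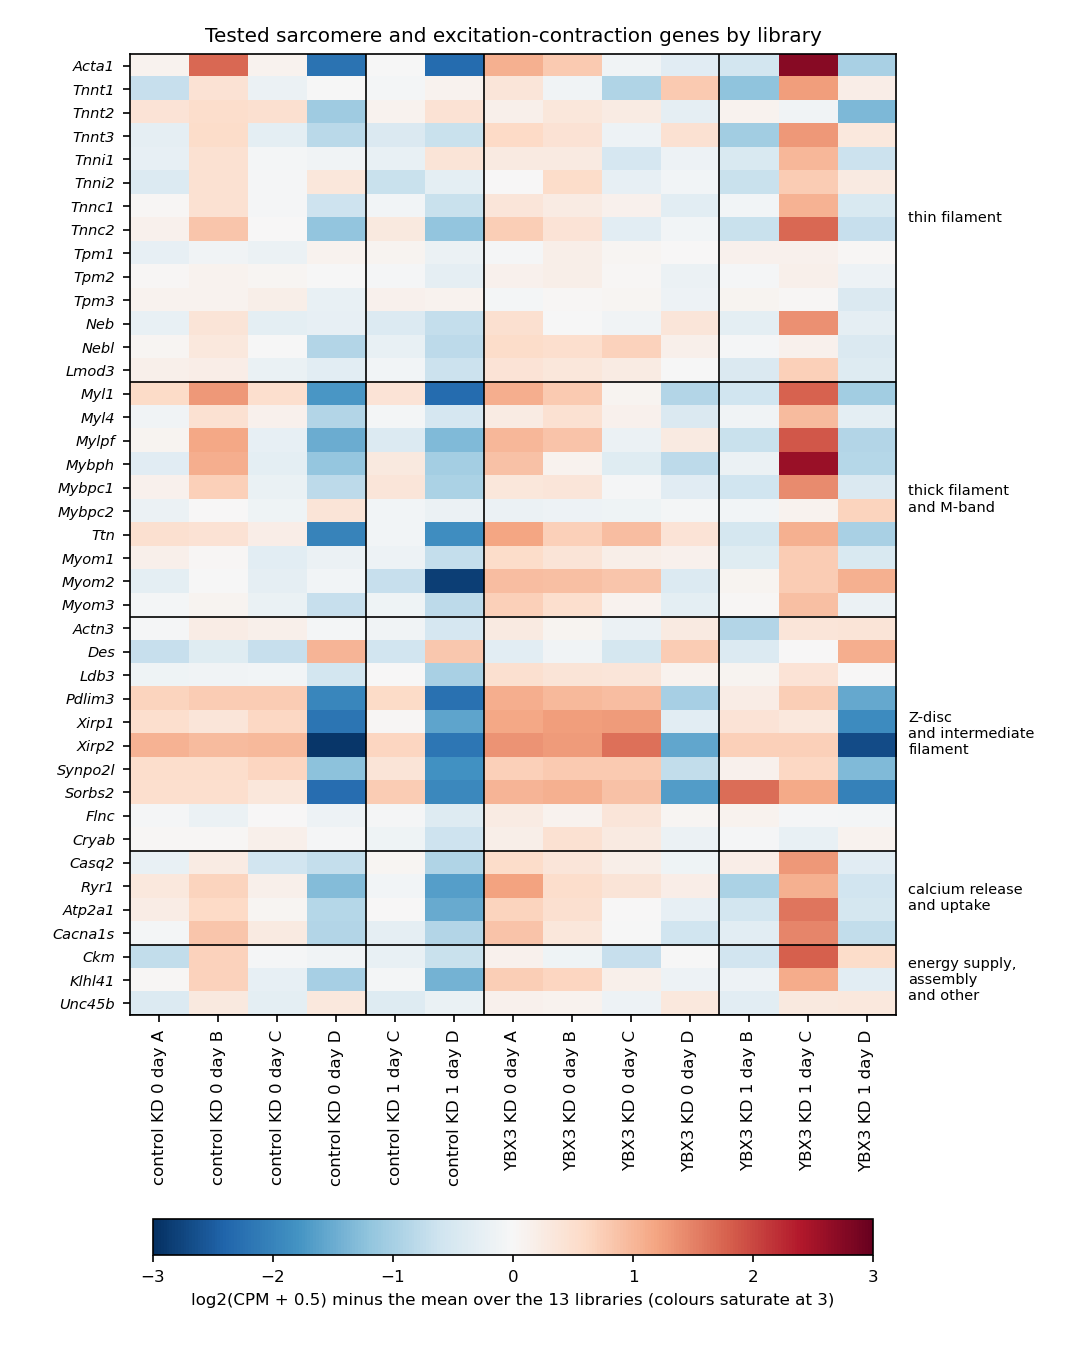
Levels of the 41 tested genes (grouped by role) in the 13 libraries, as log2 of CPM plus 0.5 minus the mean of the 13 libraries, with colours that saturate at 3. Blue columns for replicate D stand out in part of the Z-disc block (Pdlim3, Xirp1, Xirp2, Synpo2l and Sorbs2). So does a red column for YBX3 KD 1 day C, the highest library for 21 of the 41 genes.

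The other library to name is YBX3 KD 1 day C. It was the highest of the 13 for 21 of the 41 tested members (51.2%), against 4.61% of all tested genes. Acta1, the skeletal actin gene, reached 34.2 CPM there, while the other libraries lay between 0.549 and 16.6 CPM. The lowest library was control KD 1 day D for 20 of the members (7.74% of all tested genes) and control KD 0 day D for 9 (10.4%). Since control KD has only 2 libraries at 1 day, these libraries weigh heavily in every comparison that uses that day.

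Members that move together are often read through their promoters, so 6 windows are shown: 4 of the 10 genes low in replicate D (Xirp2, Synpo2l, Pdlim3, Myl1), picked by hand after their values were seen, Des as the gene with the reverse pattern, and Ldb3 as the member with the smallest p of the knockdown comparison. Each runs from 250 bases before to 50 bases after the start of the canonical transcript (GENCODE vM39 on GRCm39), written along the gene's strand. Capitals mark matches on either strand to the E-box form CAGCTG, to CATTCC, to TATAAA, to the CArG box or to the MEF2 motif.
Xirp2: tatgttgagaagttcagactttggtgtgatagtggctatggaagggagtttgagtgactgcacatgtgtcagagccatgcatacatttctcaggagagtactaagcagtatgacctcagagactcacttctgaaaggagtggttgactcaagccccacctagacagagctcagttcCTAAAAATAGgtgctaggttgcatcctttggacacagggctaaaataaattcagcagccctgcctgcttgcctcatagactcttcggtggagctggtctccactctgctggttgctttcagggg
Synpo2l: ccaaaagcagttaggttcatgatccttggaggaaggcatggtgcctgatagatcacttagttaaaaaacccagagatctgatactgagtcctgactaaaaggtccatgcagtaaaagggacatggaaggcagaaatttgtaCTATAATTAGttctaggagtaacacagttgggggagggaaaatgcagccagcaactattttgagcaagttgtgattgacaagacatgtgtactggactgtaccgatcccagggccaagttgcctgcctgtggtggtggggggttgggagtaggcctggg
Pdlim3: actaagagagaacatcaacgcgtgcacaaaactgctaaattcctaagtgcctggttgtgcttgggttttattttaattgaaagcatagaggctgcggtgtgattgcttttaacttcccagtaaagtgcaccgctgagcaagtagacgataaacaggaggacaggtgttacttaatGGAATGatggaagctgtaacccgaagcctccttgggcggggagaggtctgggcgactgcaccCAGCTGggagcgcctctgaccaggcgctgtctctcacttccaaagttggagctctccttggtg
Myl1: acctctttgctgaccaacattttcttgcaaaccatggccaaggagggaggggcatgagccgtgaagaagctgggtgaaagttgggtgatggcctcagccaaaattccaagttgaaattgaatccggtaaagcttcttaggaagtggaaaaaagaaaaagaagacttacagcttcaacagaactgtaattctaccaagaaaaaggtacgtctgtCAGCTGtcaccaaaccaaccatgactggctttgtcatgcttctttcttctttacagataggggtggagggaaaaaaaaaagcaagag
Des: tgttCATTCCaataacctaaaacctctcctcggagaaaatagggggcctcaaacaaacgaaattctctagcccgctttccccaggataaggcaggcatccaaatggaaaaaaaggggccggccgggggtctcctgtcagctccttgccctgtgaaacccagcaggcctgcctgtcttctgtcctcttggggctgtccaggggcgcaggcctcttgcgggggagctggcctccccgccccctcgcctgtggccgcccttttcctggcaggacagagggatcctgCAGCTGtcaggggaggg
Ldb3: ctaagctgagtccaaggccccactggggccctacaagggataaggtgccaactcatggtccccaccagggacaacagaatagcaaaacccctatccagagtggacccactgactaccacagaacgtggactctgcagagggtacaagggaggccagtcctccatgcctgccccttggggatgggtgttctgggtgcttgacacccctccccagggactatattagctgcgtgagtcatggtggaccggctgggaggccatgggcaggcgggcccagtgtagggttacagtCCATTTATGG

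The windows lie at chr2:67276096-67276395 on the plus strand (Xirp2), chr14:20718373-20718672 on the minus strand (Synpo2l) and chr8:46338148-46338447 on the plus strand (Pdlim3). Those of Myl1, Des and Ldb3 lie at chr1:66984353-66984652 (minus), chr1:75336617-75336916 (plus) and chr14:34310664-34310963 (minus). The capitals are the MEF2 motif in Xirp2 and Synpo2l, CAGCTG with CATTCC in Pdlim3 and in Des, CAGCTG in Myl1, and a CArG box just inside the Ldb3 transcript. A match is only a description of the sequence, other start sites of these genes were not examined, and the predicted gene Gm15179 also lies in the Des window and Gm49012 in the Ldb3 window.

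Among the promoters of the 41 tested members, 34 held an E-box CANNTG on either strand (82.9%), against 67.1% of 16762 tested promoters. The CAGCTG form, which is 1 kind of CANNTG, was in 16 (39.0% against 14.3%). CATTCC was in 9 (22.0% against 13.2%) and TATAAA in 5 (12.2% against 10.1%). A CArG box was in those of Acta1, Ldb3 and Myom1 (7.32% against 1.45%), and the MEF2 motif in those of Klhl41, Myom3, Nebl, Synpo2l and Xirp2 (12.2% against 2.58%). These shares were not tested.

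YBX3 is an RNA- and DNA-binding protein of the cold-shock domain family that influences how long messages last and how well they are translated. The authors report that its message was present in proliferating C2C12 myoblasts and that its protein increased during differentiation. Messages of contractile proteins are among the most abundant that a later myotube makes. Comparing YBX3 KD with control KD over both days, with the day as a term, asks whether the loss of the protein shifts these messages at either stage. Each fold change is YBX3 KD over control KD.

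No tested member of the 41 was called (fold change over 1.3 and adjusted p under 0.001), and 0.113% of all tested genes were. At adjusted p under 0.05 the count was also 0, with 2.34% of all tested genes. At unadjusted p under 0.05 there were 6 of the 41 (14.6%, all higher), against 15.6% of all tested genes, so the share was near the background and was not a result. DESeq2 gave 3 members at adjusted p under 0.05 (6.998% of all tested genes). With replicate letter as a block edgeR gave 5 (9.78%), and leaving out control KD 1 day C gave 1, Ldb3 (adjusted p 0.0394, with 1.24% of all genes tested then).

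The direction was more uniform than the tests. By sign alone 39 of the 41 were higher in YBX3 KD under TMM scaling, 38 with RLE factors and 37 with DESeq2, with a median log2 fold change of 0.51, while 50.1% of all tested genes were higher (median 8.03e-04). Leaving out YBX3 KD 1 day C brought this to 33 higher with a median of 0.15. With letter D left out, 39 of 42 tested members were higher with a median of 0.37. The members are not independent of each other, and this count was not given a test.

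**Figure D3:**
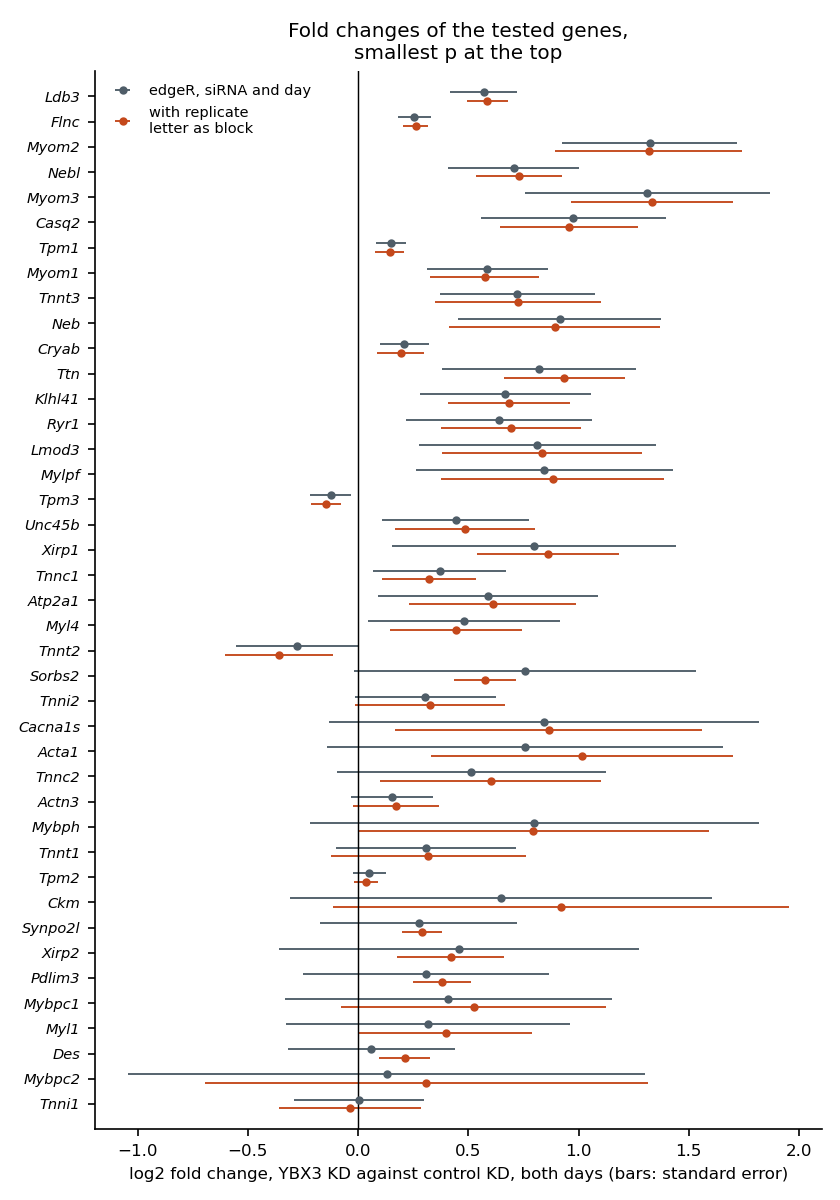
Log2 fold change of each of the 41 tested members in YBX3 KD against control KD over both days, with bars of 1 SE, from the edgeR fit with siRNA and day and from the fit that adds replicate letter, ordered by p. Most points lie right of 0, and the bars of Sorbs2, Pdlim3, Xirp2 and Synpo2l shrink with the block.

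Genes of the thin filament code for actin, the tropomyosin and troponin switch and the proteins that set filament length. By sign 12 of the 14 tested were higher and 2 lower, with a median of 0.34, and 1 was at unadjusted p under 0.05. That gene was Nebl, for the nebulin-like protein that ties actin to the Z-disc (ENSMUSG00000053702). It stood at 1.12, 1.41, 1.03 and 0.340 CPM in control KD at 0 day and at 0.834 and 0.392 CPM at 1 day. With YBX3 depleted it read 1.78, 1.68, 1.99 and 1.22 CPM at 0 day and 1.01, 1.18 and 0.640 CPM at 1 day. The YBX3 KD library was the higher in each of the 6 letter pairs, but the groups overlapped. The log2 fold change was 0.71 (SE 0.30, adjusted p 0.265, edgeR quasi-likelihood), and adding the letter block gave an adjusted p of 0.0435.

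The tropomyosins, which cover the myosin sites on actin, were steady. Tpm1 averaged 1037 ± 107 CPM in the 6 control KD libraries and 1152.5 ± 60.9 CPM in the 7 YBX3 KD libraries, with overlap, and its log2 fold change was 0.15 (SE 0.07, adjusted p 0.324). Tpm2 ran from 320 to 416 CPM in control KD and from 342 to 433 CPM in YBX3 KD (0.05, adjusted p 0.784). Leaving out single libraries moved Tpm2 between 0.0050 and 0.098. Tpm3 was 1 of only 2 members with a negative sign, with 420 to 550 CPM in control KD and 361 to 520 CPM in YBX3 KD (-0.12, adjusted p 0.572). The other was Tnnt2, the troponin T gene of embryonic muscle, at -0.28 (SE 0.28, adjusted p 0.680). It was at -0.45 without control KD 0 day D and at -0.14 without YBX3 KD 1 day D. Leaving out the same libraries gave -0.18 and -0.069 for Tpm3.

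Acta1 showed how far single libraries reached. Acta1 stood at 5.11, 16.6, 5.14 and 0.617 CPM in control KD at 0 day and at 4.69 and 0.549 CPM at 1 day. YBX3 KD gave 10.5, 8.51, 4.33 and 3.64 CPM at 0 day and 3.09, 34.2 and 2.15 CPM at 1 day. Replicate B was the highest in control KD at 0 day and replicate C the highest in YBX3 KD at 1 day, and the siRNA groups overlapped widely. The log2 fold change was 0.76 with an SE of 0.90 (adjusted p 0.733), and it was -0.022 without YBX3 KD 1 day C.

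Thick filament and M-band genes code for myosin light chains, myosin-binding proteins, titin and the myomesins that bridge neighbouring thick filaments. All 10 tested were higher by sign in the edgeR fit, with a median of 0.69, and 2 were at unadjusted p under 0.05. Both were myomesin genes, Myom2 and Myom3. Mybpc2, at 0.13 (SE 1.17) in that fit, was at -0.36 with DESeq2.

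Myom2 codes for the M-band bridge of fast fibres (ENSMUSG00000031461, chr8:15107272-15183541). It stood at 9.97, 12.3, 10.2 and 11.7 CPM in control KD at 0 day and at 7.45 and 1.33 CPM at 1 day. In YBX3 KD it stood at 24.1, 23.5, 22.4 and 9.26 CPM at 0 day and at 13.3, 21.4 and 26.4 CPM at 1 day. Replicates A, B and C at 0 day were each above their control partners by more than the spread among controls, replicate D at 0 day was not, and that library made the groups overlap. The means were 8.82 ± 4.03 and 20.05 ± 6.30 CPM, for a log2 fold change of 1.32 (SE 0.40, adjusted p 0.109, edgeR quasi-likelihood). DESeq2 gave an adjusted p of 0.0111 and the letter block 0.0765. With letter D left out Myom2 was the only member called, at 1.14 (SE 0.13, adjusted p 9.87e-04), against 0.591% of all genes tested then.

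Myom3, the myomesin gene of intermediate-speed fibres, ran from 0.0261 to 0.455 CPM in control KD and from 0.235 to 1.21 CPM in YBX3 KD. It was higher in 6 of 6 letter pairs, with overlap between the groups and a log2 fold change of 1.31 (SE 0.56, adjusted p 0.270). The letter block gave an adjusted p of 0.0483.

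Ttn codes for titin, the spring from Z-disc to M-band. It stood at 56.7, 54.4, 46.2 and 9.69 CPM in control KD at 0 day and at 37.9 and 10.8 CPM at 1 day. After YBX3 KD the levels were 92.8, 66.0, 77.1 and 53.9 CPM at 0 day and 28.0, 85.0 and 20.4 CPM at 1 day. In all 6 pairs of the same letter and day the YBX3 KD library was above its control. YBX3 KD 1 day B has no such partner and was low, and the groups overlapped. The log2 fold change was 0.82 (SE 0.44, adjusted p 0.405) and 0.94 with the letter block (adjusted p 0.0582 in edgeR and 0.00434 in DESeq2). It was at 0.53 without YBX3 KD 1 day C and at 1.08 without control KD 1 day C. The light chain genes Myl1 (0.32, SE 0.64, adjusted p 0.854) and Mylpf (0.85, adjusted p 0.533) were far from the thresholds, and without YBX3 KD 1 day C they were at -0.19 and 0.29.

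Z-disc and intermediate filament genes anchor the thin filaments and tie myofibrils to each other and to the membrane. All 10 tested were higher by sign, with a median of 0.29, and 2 were at unadjusted p under 0.05. They were Ldb3 and Flnc, the members with the smallest p of the 41.

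Ldb3 codes for a PDZ and LIM protein that holds alpha-actinin at the Z-disc (ENSMUSG00000021798, chr14:34248056-34312351). It stood at 13.9, 14.1, 14.3 and 10.2 CPM in control KD at 0 day and at 15.4 and 7.58 CPM at 1 day. The YBX3 KD libraries had 21.3, 19.9, 19.8 and 16.4 CPM at 0 day and 16.3, 20.4 and 15.3 CPM at 1 day. All YBX3 KD libraries but 1 day D were above all controls, that library was just under control KD 1 day C, and every letter pair was higher in YBX3 KD. The means were 12.6 ± 3.01 and 18.5 ± 2.43 CPM, and the log2 fold change was 0.57 (SE 0.15, adjusted p 0.0779, edgeR quasi-likelihood). The adjusted p was 0.00645 with the letter block, 0.0136 with DESeq2 and 0.00827 with letter D left out (log2 fold change 0.44).

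Flnc codes for the muscle filamin, which crosslinks actin at the Z-disc and membrane (ENSMUSG00000068699, chr6:29433072-29461887). It stood at 520, 471, 541 and 485 CPM in control KD at 0 day and at 528 and 408 CPM at 1 day. With YBX3 depleted it read 639, 581, 685 and 554 CPM at 0 day and 574, 525 and 515 CPM at 1 day. Replicates A, B and C of YBX3 KD at 0 day were the highest of all, while at 1 day YBX3 KD overlapped with controls. The means were 492 ± 48.8 and 582 ± 61.3 CPM, for a log2 fold change of 0.25 (SE 0.07, adjusted p 0.102), below the fold of 1.3 that a call needs. The adjusted p was 0.0234 with the letter block and 0.0432 with DESeq2.

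**Figure D4:**
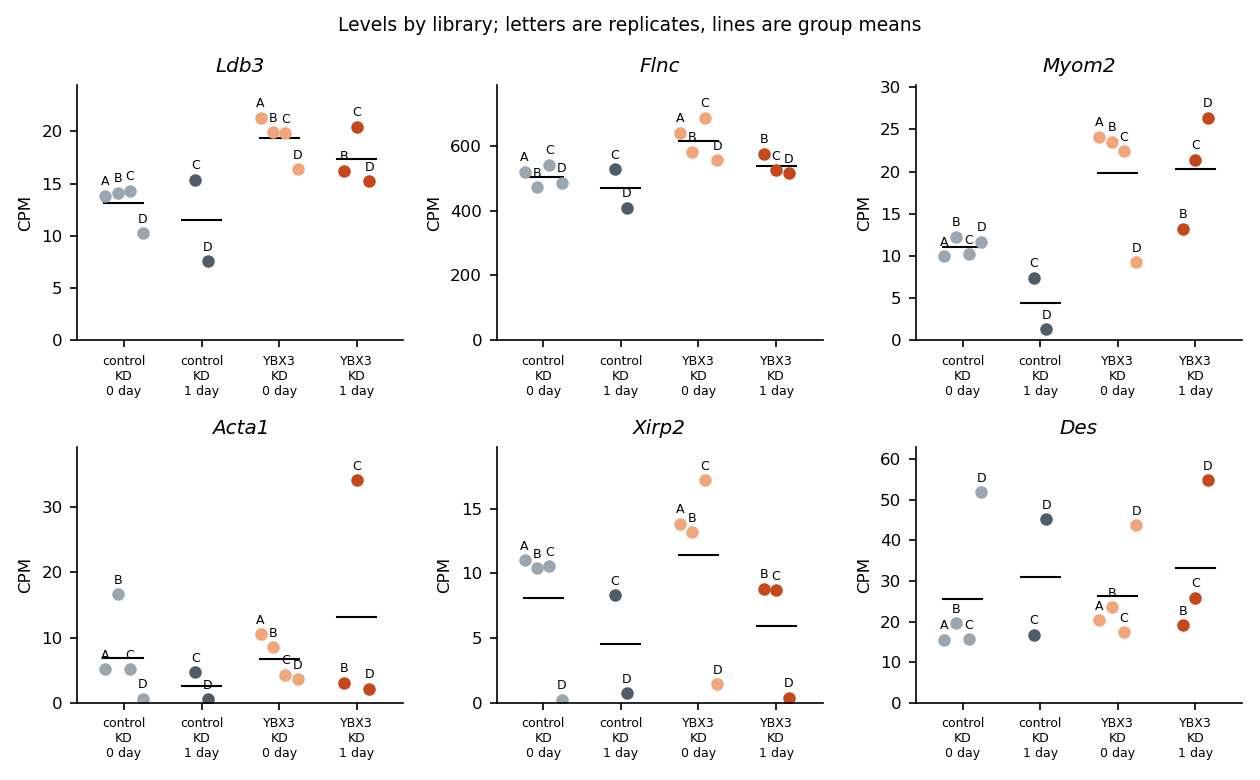
CPM of 6 members in each library, by siRNA and day, with replicate letters beside the points and lines at group means. Ldb3 and Myom2 are higher in most YBX3 KD libraries (means of 18.5 and 20.05 CPM against 12.6 and 8.82 CPM in control KD), Acta1 is carried by YBX3 KD 1 day C, and Xirp2 and Des separate by replicate D.

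The standing of Sorbs2 changed with the design. It stood at 5.29, 5.33, 4.70 and 0.340 CPM in control KD at 0 day and at 6.44 and 0.575 CPM at 1 day. YBX3 KD gave 7.82, 8.12, 7.05 and 0.775 CPM at 0 day and 12.7, 8.46 and 0.512 CPM at 1 day. Outside replicate D every YBX3 KD library was above every control, and the D libraries were low in all groups. Without the block the log2 fold change was 0.76 (SE 0.78, adjusted p 0.686), and with it 0.58 (SE 0.14, adjusted p 0.0322). Without the block it was at 0.47 when control KD 1 day D was left out.

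Xirp1, for an actin-binding repeat protein of the same family as that of Xirp2, was at 0.80 (SE 0.64, adjusted p 0.601) and had an adjusted p of 0.115 with the letter block in edgeR and 0.0435 in DESeq2. With letter D left out it was at 0.68 (SE 0.12, adjusted p 0.00633), although its groups overlapped there too. Cryab, for the chaperone that protects desmin and filamin, ran from 26.8 to 45.8 CPM in control KD and from 35.4 to 56.5 CPM in YBX3 KD (0.21, SE 0.11, adjusted p 0.394), and was at 0.13 without control KD 1 day D. Pdlim3, higher in all 6 letter pairs, was at 0.31 (SE 0.56, adjusted p 0.833). With the letter block it was at 0.38 (SE 0.13), with an adjusted p of 0.0889 in edgeR and 0.0356 in DESeq2. Without the block, leaving out control KD 1 day D gave 0.069 and leaving out control KD 1 day C gave 0.74. Xirp2 was at 0.46 (SE 0.81, adjusted p 0.8304) and Des at 0.06 (SE 0.38, adjusted p 0.959). Leaving out the same libraries gave 0.21 and 0.95 for Xirp2. The sign of Des turned to -0.15 when YBX3 KD 0 day D was left out.

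Genes of calcium release and uptake code for the voltage sensor, the release channel, the calcium buffer and the pump of the sarcoplasmic reticulum. All 4 were higher by sign (median 0.74), with 1 at unadjusted p under 0.05. Casq2, for the calcium buffer calsequestrin, ran from 0.287 to 1.25 CPM in control KD and from 0.665 to 3.14 CPM in YBX3 KD, with overlap and all 6 letter pairs higher. Its log2 fold change was 0.98 (SE 0.42, adjusted p 0.278) and its adjusted p with the letter block 0.0801 in edgeR and 0.0324 in DESeq2. Ryr1, the release channel gene, ran from 2.69 to 15.3 CPM and from 4.69 to 22.7 CPM (0.64, adjusted p 0.512). Atp2a1, the pump gene, ran from 0.679 to 4.60 CPM and from 1.80 to 9.69 CPM (0.59, adjusted p 0.619), and the groups overlapped for both. Without YBX3 KD 1 day C Ryr1 was at 0.32 and Atp2a1 at 0.13.

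The genes of energy supply, assembly and other work were low. All 3 tested were higher by sign (median 0.65), none at unadjusted p under 0.05. Klhl41, for a protein that stabilizes nebulin, ran from 1.18 to 6.76 CPM in control KD and from 3.10 to 9.24 CPM in YBX3 KD (0.67, SE 0.39, adjusted p 0.446). Unc45b, for the chaperone that folds myosin, ran from 0.251 to 0.741 CPM and from 0.300 to 0.752 CPM (0.44, adjusted p 0.575). Ckm, for muscle creatine kinase, reached 2.52 CPM in YBX3 KD 1 day C and stayed at or under 0.911 CPM elsewhere (0.65, SE 0.96, adjusted p 0.789). In each of the 3 the groups overlapped, and without YBX3 KD 1 day C Klhl41 was at 0.43 and Ckm at 0.15.

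Within replicate letters, 9 of the 41 tested members were higher in YBX3 KD in all 6 pairs (22.0%), against 9.35% of all tested genes. They were Nebl, Lmod3, Ttn, Myom1, Myom3, Ldb3, Pdlim3, Synpo2l and Casq2. No member was lower in all 6 (7.97% of all tested genes). For 0 members were all 7 YBX3 KD libraries above all 6 controls (0.950% of all tested genes), and for 0 were they all below (1.08%). The median ratio over the members differed by pair, from -0.05 in letter B at 0 day to 1.04 in letter C at 1 day.

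**Figure D5:**
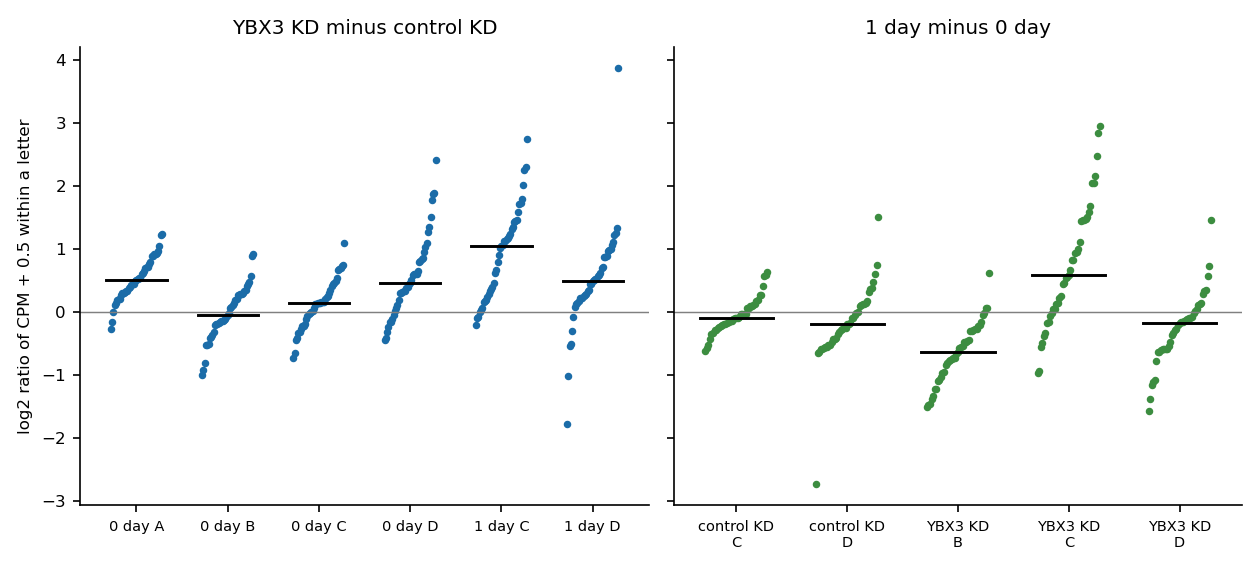
Log2 ratio of CPM plus 0.5 within a replicate letter for the 41 tested members, as YBX3 KD minus control KD in 6 pairs and as 1 day minus 0 day in 5 pairs, with a bar at each median. Letter C of YBX3 KD is the only day pair with a median above 0 (0.58), and letter B at 0 day is the only siRNA pair with a median below 0 (-0.05).

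With the letter block the fit gave 38 of the 41 tested members higher, a median of 0.57, and 13 at unadjusted p under 0.05 (31.7%), against 28.4% of all tested genes. The 5 at adjusted p under 0.05 were Ldb3, Flnc, Sorbs2, Nebl and Myom3, and none was called. DESeq2 with the letter block called 2 members, Ldb3 (adjusted p 6.05e-07) and Sorbs2 (adjusted p 6.96e-04), against 2.52% of all tested genes, and had 11 at adjusted p under 0.05 (17.5% of all tested genes). The other 9 were Nebl, Ttn, Myom2, Myom3, Pdlim3, Xirp1, Synpo2l, Flnc and Casq2. With letter D left out, 4 of 42 were at adjusted p under 0.05 (12.5% of all genes tested then), Myom2, Xirp1, Ldb3 and Sorbs2, the last with an adjusted p of 0.0120. In each of these settings more of all tested genes passed as well.

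At 0 day the cells were in growth medium, where myoblasts divide and many contractile genes run at a low level, although Tpm1, Tpm2, Tpm3 and Flnc were abundant here. A comparison at this stage reads the siRNA effect before any cue to differentiate. With 4 libraries on each side it is also the better supplied of the day-wise comparisons.

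At 0 day 0 of the 41 tested members were called (0.0297% of all tested genes) and 0 were at adjusted p under 0.05 (0.427%). Unadjusted p was under 0.05 for 2 (4.88%), against 11.05% of all tested genes, and DESeq2 had 0 at adjusted p under 0.05 (3.003%). By sign 33 were higher (32 with RLE or DESeq2), with a median of 0.23, while 49.2% of all tested genes were higher. The median ran from 0.11 without control KD 0 day D to 0.57 without control KD 0 day B. By role, 9 of 14 thin filament, 8 of 10 thick filament, 10 of 10 Z-disc, 4 of 4 calcium and 2 of 3 energy and assembly genes were higher.

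Flnc and Ldb3 had the smallest p at 0 day. For Flnc all 4 YBX3 KD libraries (554 to 685 CPM) were above the 4 controls (471 to 541 CPM), a log2 fold change of 0.29 (SE 0.10, adjusted p 0.273). For Ldb3 they were above too (16.4 to 21.3 CPM over 10.2 to 14.3 CPM), at 0.56 (SE 0.20, adjusted p 0.306). With the letter block Ldb3 reached an adjusted p of 0.0453, the only member of the 41 to do so (2.37% of all tested genes). DESeq2 with the block called Ldb3 alone (adjusted p 9.17e-04, 1.49% of all tested genes) and had 5 at adjusted p under 0.05 (7.91%). Besides Ldb3 these were Flnc (0.0155), Nebl (0.0440), Xirp1 (0.00899) and Sorbs2 (0.0141).

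Nebl came next at 0.76 (SE 0.38, adjusted p 0.511), with its lowest value in control KD 0 day D. Leaving out single libraries moved its log2 fold change between 0.49 and 0.98. With letter D left out 3 of 42 members were at adjusted p under 0.05 (5.49% of all genes tested then). They were Myom2 at 1.11 (adjusted p 0.00853), Xirp1 at 0.80 (adjusted p 0.0118) and Ldb3 at 0.52 (adjusted p 0.0157). Then 29 of the 42 were higher by sign, with a median of 0.21.

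At 1 day the cells had been in horse serum for their last day. This medium was given to induce differentiation, in which committed myoblasts switch on muscle structural genes. A role for YBX3 in that switch would be read in the same messages. Only 2 control KD and 3 YBX3 KD libraries exist at this stage, and both libraries named above as extremes, control KD 1 day D and YBX3 KD 1 day C, sit here.

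At 1 day 0 of the 41 tested members were called (0% of all tested genes) and 0 were at adjusted p under 0.05 (0.0712%). At unadjusted p under 0.05 there were 3 (7.32%), against 7.79% of all tested genes, and DESeq2 had 1 at adjusted p under 0.05 (0.902% of all tested genes). By sign 39 were higher, with a median of 0.87, while 52.1% of all tested genes were higher (median 0.02). Without YBX3 KD 1 day C it was 28 of 41 with a median of 0.12. Without control KD 1 day D it was 36 of 42 with 0.40, and without control KD 1 day C it was 38 of 43 with 2.04. Leaving out letter D, which keeps 1 control library, gave 37 of 42 with 0.72.

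By role at 1 day, 12 of 14 thin filament genes were higher (median 0.69), as were all 10 thick filament (1.31), all 10 Z-disc (0.35), all 4 calcium (1.29) and all 3 energy and assembly genes. Myom2 had the smallest p, with 7.45 and 1.33 CPM in control KD and 13.3, 21.4 and 26.4 CPM in YBX3 KD. These groups did not overlap, and the log2 fold change was 2.20 (SE 0.61, adjusted p 0.431, edgeR quasi-likelihood). DESeq2 gave it an adjusted p of 0.0184 and the letter block 0.0848.

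Neb came next at 1.82 (SE 0.74, adjusted p 0.597), with 0.446 and 0.261 CPM in control KD and 0.529, 2.77 and 0.537 CPM in YBX3 KD. The groups did not overlap, but most of the distance lay in replicate C of YBX3 KD. Ldb3 followed at 0.59 (SE 0.26, adjusted p 0.632), with 15.4 and 7.58 CPM against 16.3, 20.4 and 15.3 CPM. There the lower YBX3 KD library was just under the higher control. DESeq2 with the letter block had 3 members at adjusted p under 0.05 (13.9% of all tested genes), Myom2 (0.00754) and Ldb3 higher and Tnnt2 lower. Leaving out 1 library moved these fold changes: without control KD 1 day D Myom2 was at 1.44 and Ldb3 at 0.17, without control KD 1 day C they were at 3.93 and 1.19, and without YBX3 KD 1 day C Neb was at 0.58.

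Whether the siRNA effect differs between the media is a question of its own, since a gene may pass at 1 stage and fail at the other without any difference. A factor that acts only on the differentiation program would give a larger effect at 1 day. The difference of the siRNA effects was therefore tested directly.

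Of the 41 tested members 0 were called (0% of all tested genes) and 0 were at adjusted p under 0.05 (0%). Unadjusted p was under 0.05 for 1 (2.44%), against 2.64% of all tested genes, and DESeq2 had 0 at adjusted p under 0.05 (0.0119%). By sign 33 had a larger log2 fold change at 1 day, with a median difference of 0.50. Without YBX3 KD 1 day C this turned to 12 of 41 with a median of -0.14. Without control KD 1 day D it was 24 of 42 with 0.076, and without control KD 1 day C 38 of 43 with 1.41, so the direction rested on single libraries. The thick filament genes were all positive (median 1.00), while the Z-disc genes were split, 6 against 4 (median 0.05).

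Mybpc2, the gene of fast myosin-binding protein C, had the smallest p at 4.67 (SE 2.05, adjusted p 1.00). It had 40 counts in all libraries together, from 0 to 16 in each, so the value rests on very few reads. Myom2 was at 1.35 (SE 0.72) and Ckm at 3.23 (SE 1.72), both with an adjusted p of 1.00. Without control KD 1 day D Myom2 was at 0.60, without control KD 1 day C at 3.09, and without YBX3 KD 1 day C Ckm was at 1.86.

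The change to horse serum was made to induce differentiation, the program that these genes belong to, and muscle structural genes are its late output. How far it had begun in these cultures by 1 day was not tested. After 1 day most C2C12 cells have not fused, so early members would be read first. The day effect was taken over both siRNAs, with the siRNA as a term, and then in each. Each fold change is 1 day over 0 day.

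Over both siRNAs 0 of the 41 tested members were called (0% of all tested genes) and 0 were at adjusted p under 0.05 (0%). At unadjusted p under 0.05 there were 2, both lower (4.88%), against 2.83% of all tested genes, and DESeq2 had 0 at adjusted p under 0.05 (0.0119%). By sign 12 were higher and 29 lower, with a median of -0.18, while 50.7% of all tested genes were higher. Without YBX3 KD 1 day C, 3 of 41 were higher with a median of -0.60. The lean was nearly gone without control KD 1 day D (19 higher and 23 lower, median -0.015) and with letter D left out (19 and 23, median -0.030). By role the medians were -0.07 for the thin filament, -0.26 for the thick filament, -0.25 for the Z-disc, -0.29 for calcium and -0.27 for energy and assembly.

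Cryab had the smallest p for the day. It stood at 42.3, 42.4, 45.8 and 40.5 CPM in control KD at 0 day and at 37.5 and 26.8 CPM at 1 day. In YBX3 KD it stood at 46.5, 56.5, 50.2 and 36.3 CPM at 0 day and at 40.4, 35.4 and 44.2 CPM at 1 day. Both control libraries at 1 day were below those at 0 day, while in YBX3 KD the days overlapped. The log2 fold change was -0.32 (SE 0.11, adjusted p 1.00, edgeR quasi-likelihood).

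Nebl was at -0.76 (SE 0.31) and Flnc at -0.16 (SE 0.08), both with an adjusted p of 1.00. Within letters Pdlim3, Synpo2l and Flnc were lower at 1 day in all 5 pairs (7.32% of members, 2.90% of all tested genes). No member was higher in all 5 (1.75% of all tested genes). DESeq2 with the letter block had 1 member at adjusted p under 0.05, Synpo2l (0.0243), against 0.137% of all tested genes. With the same block edgeR gave Synpo2l an adjusted p of 0.9999. Leaving out letter D gave 2 (0.932% of all genes tested then), Xirp1 at -0.81 (adjusted p 0.0183) and Xirp2 at -0.60 (adjusted p 0.0398).

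In control KD alone 0 of the 41 tested members were called (0% of all tested genes) and 0 were at adjusted p under 0.05 (0%), and DESeq2 had 0 at that level too (0.0356%). Unadjusted p was under 0.05 for 2, both lower (4.88%), against 1.44% of all tested genes. They were Myom2 at -1.32 (SE 0.57, adjusted p 1.00) and Cryab at -0.41 (SE 0.18, adjusted p 1.00). Without control KD 1 day D they were at -0.56 and -0.19, and without control KD 1 day C at -3.06 and -0.68. Tnni2, the gene of fast troponin I, came next at -0.78 (SE 0.48). By sign 6 were higher, with a median of -0.62. That median was -0.10 without control KD 1 day D and -1.75 without control KD 1 day C, so it rested on which of the 2 libraries was kept.

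In YBX3 KD alone 0 of the 41 tested members were called (0% of all tested genes) and 0 were at adjusted p under 0.05 (0%), and DESeq2 had 0 at that level too (0.0237%). At unadjusted p under 0.05 there was 1 (2.44%), against 4.28% of all tested genes. It was Mybpc2 at 3.02 (SE 1.23, adjusted p 0.988), from the few reads given above. Nebl was at -0.82 (SE 0.42) and Flnc at -0.19 (SE 0.11). By sign 24 were higher, with a median of 0.04, and without YBX3 KD 1 day C it was 5 of 41 with a median of -0.63. With letter D left out Xirp1 was at adjusted p under 0.05, at -0.96 (adjusted p 0.0480), as were 0.232% of all genes tested then.

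At the median the members varied more than other genes over the 13 libraries, although the tropomyosin genes, Flnc and Cryab varied less than most. The log2 distance from the lowest to the highest library had a median of 2.21 over the 41 tested members and of 0.75 over all tested genes. The biological coefficient of variation from edgeR had a median of 0.522 for members and 0.208 for all tested genes, and 0.362 and 0.136 with the letter block. The p-values reflect the spread between these samples, which the labels call biological replicates of a single line.

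Other sarcomere and triad genes, outside the 51, gave 27 of 32 tested genes higher in YBX3 KD over both days, with a median of 0.36. At adjusted p under 0.05 there was 1 of the 32, against 2.34% of all tested genes, so the count was near the background. That gene was Trim54, for a ubiquitin ligase on microtubules of the sarcomere, at 0.95 (SE 0.21, adjusted p 0.0328), with a mean of 0.519 ± 0.162 CPM in the controls against 0.956 ± 0.191 CPM after YBX3 KD. Cavin4, for a caveolar coat protein, followed with an adjusted p of 0.106. All 4 tested myosin heavy chain genes were higher (median 0.70), led by Myh2 at 0.90 (adjusted p 0.623) and Myh1 at 1.00 (adjusted p 0.640). Their sum per library ran from 3.00 to 64.0 CPM. It was again highest in YBX3 KD 1 day C, far above the next, 37.9 CPM in YBX3 KD 0 day A.

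Of 14 tested genes for myogenic regulators and fusion, 10 were higher (median 0.11), with Tead4 at -0.44 (adjusted p 0.0368) and Myod1 at 1.11 (adjusted p 0.0726) the smallest p, and sums of 674 to 843 CPM. The cytoskeletal counterparts outside the sarcomere, all 20 tested, gave 13 higher and 7 lower (median 0.05), with Myl9 at 0.51 (adjusted p 0.0236) and Actg1 at -0.24 (adjusted p 0.0486). They summed to between 21744 and 25901 CPM per library, led by Vim at 4014 CPM. The myoblast markers Myf5 (49.7 ± 11.1 CPM in control KD) and Cdh15 (136 ± 17.6 CPM) were present, and Pax7 was too low to test.

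Proliferation genes stood on the other side by sign, with 12 of 12 lower in YBX3 KD (median -0.41), 0 at adjusted p under 0.05 and 0 at unadjusted p under 0.05. Plk1 was at -0.56 (adjusted p 0.428) and Ccna2 at -0.53 (adjusted p 0.449), and Top2a was the most abundant at 495 CPM. Their sum was lowest in the D libraries at 0 day of both siRNAs (1396 and 1674 CPM) and in YBX3 KD 1 day D (666 CPM), and the other libraries ran from 2440.2 to 3516 CPM. In control KD 1 day D the sum was 2618 CPM, the median of the 13. Pdlim3 and Synpo2l (3.81 CPM) were at their lowest in that library, while Xirp1, Xirp2 and Sorbs2 were at theirs in control KD 0 day D. A link between proliferation genes and Z-disc messages was not tested.

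Markers of other cell types were read as a check on the line, and their origin was not tested. Of the smooth muscle list 7 of 8 were tested and 6 were higher (median 0.44), with Lmod1 at 0.76 (adjusted p 0.0623) and Actg2 at 0.60 (adjusted p 0.171), and Acta2 led a sum of 846 to 1296 CPM. The fibroblast list had 3 of 5 tested, 2 higher (median 0.34), with Col1a1 at 0.34 (adjusted p 0.295) and Pdgfra at -0.24, and Col1a1 led a sum of 2969 to 5907 CPM. In each of the 4 groups replicate D had the highest fibroblast sum (4701, 4225, 5907 and 4882 CPM) and the lowest smooth muscle sum (846, 915, 1069 and 854 CPM). The fibroblast sum was mostly the single gene Col1a1, at 4053 CPM on average over the 13 libraries. The cardiomyocyte list had 3 of 7 tested, 1 higher (median -0.03), with Nkx2-5 at -0.15 and Tnni3 at 0.19, Gata4 the most abundant at 18.4 CPM, Nppa at 0 in all libraries and a sum of 29.3 to 43.5 CPM.

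For endothelium only Cdh5 of 3 was tested (0.11), with a sum of 0.728 to 1.46 CPM. For macrophages only Cd68 of 3 was tested (-0.02), with Adgre1 at 0 in all libraries and a sum of 1.39 to 2.51 CPM. For adipocytes only Pparg of 3 was tested (0.05), with a sum of 12.04 to 30.1 CPM.

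Some limits belong to the counting. Acta1 and Actc1 share much of their coding sequence with each other and with the cytoplasmic and smooth muscle actins, so reads may be split among them. The kit is stranded, but whether strand was used in counting is not stated, and several members overlap another tested gene, among them Tnnc2 with Ube2c, Actn3 with Ctsf, Mylpf with Tbc1d10b and Septin1, Tnnc1 with Nisch, Myl4 with Cdc27, Cryab with Hspb2, Myom1 with Myl12a, Mybpc2 with Garin5a, Atp2a1 with Rabep2 and Unc45b with Nle1. In bulk RNA a lower value may mean fewer cells with the message or less message per cell, which cannot be told apart here.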

How the data were processed

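RNA from 13 C2C12 cultures was sequenced by the authors as stranded mRNA libraries and quantified with Salmon on GRCm39 (Gencode M30). The deposited table holds estimated counts per gene as whole numbers, over 55642 Ensembl gene IDs and 13 columns. How transcript estimates were joined into genes is not stated. Count totals were 33451547 to 62261197 per library in control KD at 0 day (median 43799119.5), 37511347 and 52145571 in control KD at 1 day, 41868570 to 71811371 in YBX3 KD at 0 day (median 45969544) and 36819569 to 56778578 in YBX3 KD at 1 day (median 39296290). At these depths 3 counts equal 0.0417 to 0.0926 CPM, and lower values rest on fewer reads than that.

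From the deposited counts, CPM were computed on column totals of tested genes scaled by TMM factors, and log2 fold changes by edgeR 4.0.16 (limma 3.58.1, R 4.3.3). Genes were kept by filterByExpr on the 4 groups, which left 16848, and were scaled by TMM and tested by quasi-likelihood with Benjamini-Hochberg adjustment over all tested genes. A call needed a fold change over 1.3 and an adjusted p under 0.001, the thresholds the authors used, and adjusted p under 0.05 was also counted. The siRNA effect and the day effect over all libraries were fitted with both terms, and the others as contrasts of 4 group means that share a single estimate of spread. Standard errors are those of the log2 fold change. Values after ± are standard deviations between libraries. Python 3.11.15 with numpy 2.4.6, pandas 2.3.3 and matplotlib 3.10.9 made the tables and figures. The fit was also run on simulated counts that held no effect of replicate letter, so that run says nothing about such an effect.

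Names, canonical transcripts, lengths and promoter windows were taken from GENCODE vM39 by Ensembl ID (54969 IDs, 98.8%, holding 99.9% of counts). Members and lists were chosen with earlier results of these data known. The other lists were other sarcomere and triad genes, myosin heavy chains, myogenic regulators and fusion, cytoskeletal counterparts, proliferation, and markers of smooth muscle, cardiomyocyte, fibroblast, endothelium, macrophage and adipocyte. Named with values were Ybx3, members called in any comparison, the 3 members with the smallest p in each comparison, the 3 with the highest level per length in each role, untested members, and the 2 genes with the smallest p in each other list. Nebl, Myom3 and Tnnt2 over both days, and Ttn, Acta1, Des, Xirp1, Xirp2, Synpo2l, Sorbs2 and Trim54 means, were chosen after their values were seen.

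Whether replicate letters pair the libraries was checked from residuals: 16 of 16 same-letter pairs correlated above 0.1 (median 0.338), against 11 of 46 others, while the number in the sample title gave 8 of 16. The letter was kept out of the fit and used as an alternative. Other alternatives were DESeq2 1.42.0, RLE factors, dropping the low-count filter or asking for 10 counts in every library, a block by title number, only the compared libraries, and leaving out libraries singly. Leaving out letter D, the letter block within DESeq2, and adjusted p under 0.05 combined with each setting were added after seeing the data. No library or column was left out of the fit.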

Additional observations from a re-analysis of the deposited data

Results flagged for a closer look

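By a test for a single value far from the rest of its group, 10 values among the named members stood apart, in groups of 4 libraries at 0 day. Over 56 combinations of gene and group, chance alone would mark about 1 in 20 groups. Xirp2, Des, Sorbs2 and Tnnt2 were named after their values were seen, so that rate is no test of them.

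Most were in replicate D. In control KD 0 day D, Ldb3 was low at 10.2 CPM (the other replicates 13.9 to 14.3), Xirp2 at 0.247 (10.4 to 11.04), Tnnt2 at 29.7 (84.1 to 90.5), Pdlim3 at 6.42 (41.8 to 44.9) and Sorbs2 at 0.340 (4.70 to 5.33). In the same library Des was high at 51.9 CPM (15.5 to 19.6). In YBX3 KD 0 day D, Myom2 was low at 9.26 CPM (22.4 to 24.1), Pdlim3 at 12.9 (50.05 to 56.7) and Sorbs2 at 0.775 (7.05 to 8.12). Neb was high in control KD 0 day B at 1.14 CPM (0.517 to 0.570). The cause was not tested.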

How the results depend on the processing

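The members called or at adjusted p under 0.05 depended on how replicate letters were handled. For YBX3 KD against control KD over both days the count at adjusted p under 0.05 was 0, and it became 3 with DESeq2, 5 with the letter block, 11 with DESeq2 and the block (2 of them called) and 4 with letter D left out (1 called). Leaving out single libraries gave 0 to 1. The smallest adjusted p-values there were those of Ldb3 (6.05e-07) and Sorbs2 (6.96e-04) in DESeq2 with the block and of Myom2 (9.87e-04, edgeR) with letter D left out. Both settings were added after seeing the data. In the main edgeR fit the adjusted p was 0.0779 for Ldb3, 0.686 for Sorbs2 and 0.109 for Myom2. Leaving out letter D also removes YBX3 KD 0 day D, the low Myom2 library of its group (9.26 CPM). At 0 day the count was 1 with the block, 5 with DESeq2 and the block (1 called, Ldb3 at 9.17e-04) and 3 with letter D left out. At 1 day it was 1 with DESeq2 and 3 with DESeq2 and the block. For the day over both siRNAs it was 1 with DESeq2 and the block and 2 with letter D left out, and in YBX3 KD alone 1 with letter D left out. The replicate block, or pairing by letter, changed no other call.

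Medians moved most at 1 day. Leaving out single libraries moved the median log2 fold change of members from 0.11 to 0.57 at 0 day, from 0.12 to 2.04 at 1 day and from -0.14 to 1.41 for the difference between days. For the day it moved from -1.75 to -0.10 in control KD and from -0.63 to 0.28 in YBX3 KD. The control KD median of -0.62 was -0.48 with a minimum of 10 counts, -0.44 with the letter block, -0.85 with the block by title number, -0.44 with DESeq2 and the block and -0.35 with letter D left out.

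Over both days the sign of Mybpc2 turned between edgeR (0.13) and DESeq2 (-0.36). When single libraries were left out, signs turned for 3 of the members named for that comparison. Without YBX3 KD 1 day C the log2 fold change of Myl1 was -0.19 and that of Acta1 -0.022, and without control KD 0 day B they were 0.61 and 1.43. Des ran from -0.15 to 0.41 when single libraries were left out, with -0.04, -0.01 and -0.04 without control KD 0 day A, B and C, -0.11 without control KD 1 day C, -0.15 without YBX3 KD 0 day D and -0.13 without YBX3 KD 1 day D. The cause was not tested.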
